A study of Drosophila melanogaster with 28 samples.

Results

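The knockout of Mettl1 was compared between testis and body of Drosophila melanogaster by ribosome footprints, and the measure described is the tissue difference: the log2 change of knockout over wild type (WT) in testis minus the mean log2 change of 2 knockout lines in body. A locus here is a transcript together with the isoforms that hold near-identical counts. The comparison was restricted to loci with a mean of at least 10 CPM (counts scaled to library size) in WT footprints of both tissues. This left 5790 of 13988 loci tested and of 16043 loci with a count. At the edge of this minimum, the lower WT mean was 10.003 CPM for the last locus kept and 9.997 CPM for the first left out.

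Mettl1 is the catalytic subunit of an enzyme that places 7-methylguanosine (m7G) in the variable loop of a subset of tRNAs, together with the WD-repeat protein called Wuho in the fly. The modification is known to stabilise those tRNAs, and ribosomes are known to slow at the matching codons where it is lost. Ribosome profiling sequences the mRNA stretches that ribosomes protect from nuclease, so a footprint count combines how much of an mRNA is present and how many ribosomes it carries. In the testis, germ cells pass from stem cells through spermatocytes to sperm, and many transcripts are made only on that route.

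The testis samples were the later of the study's testis sets, called set 2, with 2 WT (y1 w1118) and 2 Mettl1-KO libraries. Per the labels, testes came from adult males of 2 to 3 days, 600 pairs were pooled per sample, and they were dissected with 100 µg/ml cycloheximide, which holds ribosomes in place. Body was represented by 2 WT libraries and 2 each of the knockout lines KO1 and KO2. The labels repeat the testis protocol for body, so the age of those flies and what was taken as body are not given, and whether testes were left in was not stated. The protocol names the knockout allele as Mettl1KO1, whereas body titles name KO1 and KO2. The titles of the set 2 knockout testes also hold KO1 and KO2, which were read here as replicate numbers. Those libraries may therefore be of the same line or of different lines, and the titles do not tell. The names under which their counts were deposited hint at line KO2, but the titles were followed. Where nothing says that replicates came from separate groups of flies, the p-values measure only the spread between these samples.

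Footprint totals over loci were 5563234 to 10910530 counts per library in testis set 2 and 1587351 to 7677017 in body. Over the 5790 loci, Pearson's r of log2 CPM between the libraries of a group was 0.985 in WT testis, 0.978 in knockout testis, 0.987 in WT body, 0.984 in KO1 and 0.974 in KO2. Against the mean of WT body, the WT testis libraries had an r of 0.379 and 0.358 and the knockout testis libraries 0.376 and 0.431, so replicate 2 of the knockout testes lay closest to body. The summed share of 384 loci that were at least 32-fold higher in WT body than in WT testis of set 1 was also highest in that library, at 0.538% of counts. It was 0.442% and 0.337% in the WT testes, 0.366% in replicate 1 of the knockouts and 19.7% to 22.6% in the body libraries. The part of other tissue in the testis results was not tested. Files and reference tables pair few of the transcript identifiers with gene names, so the targeted transcript, tissue markers and gene lists are not analysed here.

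The knockout effect differed between testis and body at 370 of the 5790 loci, which is 6.39%, against 5.3% of all loci tested. The test was edgeR's quasi-likelihood F-test with Benjamini-Hochberg adjustment over all 13988 loci, at an adjusted p under 0.05. At 236 loci the change was lower in testis than in body (4.08%, background 2.6%), and at 134 it was higher (2.31%, background 2.7%). The median tissue difference was -1.23 for the 236 lower loci and 1.08 for the 134 higher ones, and 180 and 85 of them reached 2-fold. The median over all 5790 loci was 0.03, with a median SE of 0.236. The ranges of all pairwise knockout minus WT differences did not overlap between the tissues at 1634 of the 5790 loci (28.2%, background 23.3%), which included 235 of the 236 and all 134. The calls were made on the same libraries, so this inclusion was largely fixed by the choice and is no separate support. In bulk tissue, fewer cells of a type and less RNA or fewer ribosomes per cell cannot be told apart.

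The count depended on single libraries. It was 130 without body WT replicate 2, 169 without body WT replicate 1, 159 without testis WT replicate 1, 160 without testis WT replicate 2, 222 without testis knockout replicate 2 and 231 without body KO1 replicate 1, with lower calls in the majority each time. Because the minimum was set on WT alone, it keeps loci that fell from above it and leaves out loci that rose from below it. With the minimum set on the mean of all libraries of each tissue, 226 loci were lower and 195 higher.

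**Figure D1:**
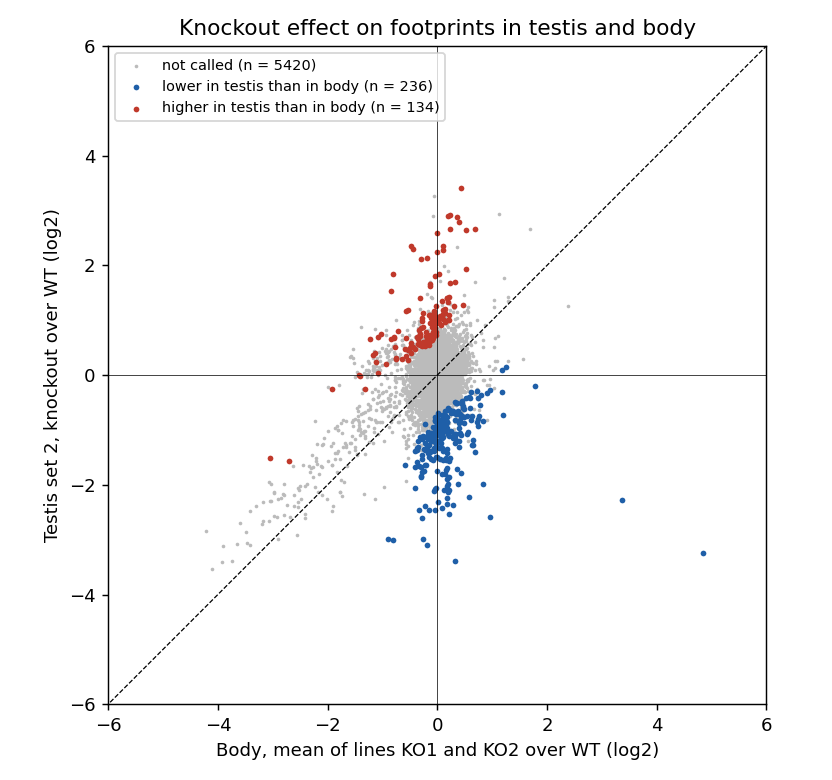
Knockout over WT footprint change (log2) in testis set 2 against the mean change of body lines KO1 and KO2, for 5790 loci. Each point is 1 locus, the dashed line marks equal change, and colours mark the 236 loci called lower and the 134 called higher in testis than in body. Most coloured points lie near 0 on the body axis and away from 0 on the testis axis.

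Most tissue differences were changes in testis without a called change in body. Of the 236 lower loci, 218 were themselves called lower in testis, and 206 of these were not called in body. Their median change was -1.15 in testis and 0.08 in body. Of the 134 higher loci, 112 were called higher in testis, and 107 of these were not called in body, with a median change of 1.01 in testis and -0.09 in body. Over all 5790 loci, 477 were called higher in testis (8.24%, background 10.2%) and 770 lower (13.3%, background 12%). Of these 1247 loci, 1034 were not called in body and 181 were called lower in both tissues. A change called in testis and not in body does not show a difference between them, and the difference was called at 206 lower and 107 higher loci of the 1034. These testis calls were 746 without testis WT replicate 1, 717 without testis WT replicate 2 and 796 without testis knockout replicate 2, out of 1247 in all.

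A smaller group changed in body. Of the 236 lower loci, 23 were called higher in body, and of the 134 higher loci, 18 were called lower in body. Called changes in opposite directions were found at 15 loci, 10 of them lower in testis and higher in body and 5 higher in testis and lower in body. The 10 had a median change of -0.89 in testis and 0.79 in body, and the 5 had 0.66 in testis and -1.03 in body. Same-direction changes of unequal size were rare: 2 loci fell in both tissues and more in testis, with a median of -3.00 in testis and -0.86 in body, and 2 fell in both and more in body, with -1.54 in testis and -2.88 in body.

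The 2 loci with the most negative and the 2 with the largest tissue difference were followed through every library. They were taken among 232 lower and 128 higher loci that were called, held at least 10 counts in each of the 10 libraries and had tissue ranges that did not overlap. They are given by FlyBase transcript identifier, since no table pairs them with a gene.

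FBtr0300942 had the most negative difference. Its testis footprints were 141 and 143 CPM in WT and 9.77 and 20.5 CPM in the knockouts. In body they were 12.5 and 10.8 CPM in WT, 367 and 19.0 CPM in KO1 and 619 and 499 CPM in KO2. The knockouts were thus below WT in testis and above WT in body, and KO1 replicate 2 stood far below the other 3 body knockouts. The testis change was -3.24 and the body change 4.83, a tissue difference of -8.08 (SE 1.25, edgeR adjusted p = 0.00567). Without body WT replicate 2 the difference was -7.92 with an adjusted p of 0.0547, so the call then failed.

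FBtr0080275 showed the same crossing. Its testis footprints were 27.6 and 20.1 CPM in WT and 6.33 and 3.44 CPM in the knockouts. In body, WT had 7.52 and 16.7 CPM, KO1 162 and 85.7 CPM and KO2 104 and 220 CPM. No knockout library of either tissue overlapped its WT. The testis change was -2.28 and the body change 3.38, a tissue difference of -5.65 (SE 0.63, edgeR adjusted p = 0.000714).

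FBtr0083632 had the largest positive difference. It had 14.2 and 11.7 CPM in WT testis and 148 and 131 CPM in knockout testis. Body levels were 18.4 and 17.0 CPM in WT, 24.2 and 20.0 CPM in KO1 and 26.6 and 23.5 CPM in KO2. The knockout testes stood far above WT, and the body knockouts all lay slightly above WT. The testis change was 3.42, while the body change of 0.43 was not called, and the difference was 2.98 (SE 0.23, edgeR adjusted p = 0.000119).

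FBtr0332034 had the second largest positive difference but was the least stable of the 4. Testis WT had 29.0 and 10.3 CPM and testis knockouts 50.4 and 157 CPM. Body WT had 386 and 207 CPM, KO1 162 and 190 CPM and KO2 293 and 206 CPM. The replicates of each testis group lay farther apart in fold than the nearest WT and knockout testis libraries. In body, WT and KO2 overlapped and both KO1 libraries lay below them. The difference was 2.85 (SE 0.67, edgeR adjusted p = 0.0311), and it was not called without testis WT replicate 2 (adjusted p = 0.118), testis knockout replicate 2 (0.0910), either body WT library (0.126 and 0.0577) or either KO1 library (0.0673 and 0.0588). Nor was it called with the replicate block (0.0758) or with both testis sets in 1 fit (0.891).

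**Figure D2:**
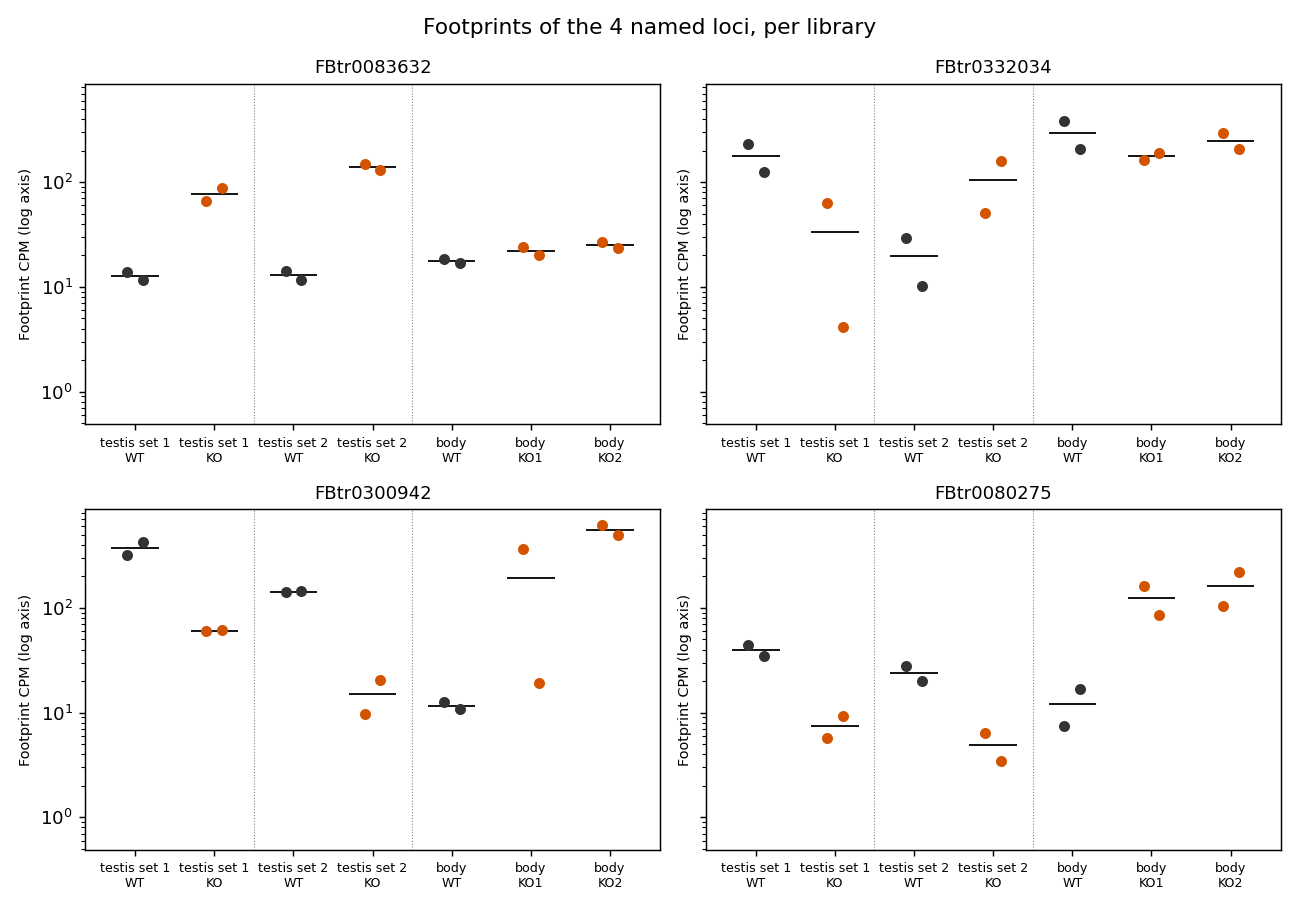
Footprint CPM on a log axis of FBtr0083632, FBtr0332034, FBtr0300942 and FBtr0080275 in testis set 1, testis set 2 and body. Points are libraries, 2 per group, and bars are group means. Set 1 was scaled apart from the other libraries. FBtr0300942 and FBtr0080275 lie below WT in knockout testes of both sets and above WT in body.

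The earlier testis set 1, whose libraries the tissue difference did not use, gave a second measurement of the testis side. FBtr0300942 went from 316 and 426 CPM in set 1 WT to 59.6 and 61.6 CPM in the knockouts, a change of -2.60 (edgeR adjusted p = 0.00257). FBtr0080275 went from 43.7 and 34.7 to 5.68 and 9.24 CPM, a change of -2.29 (adjusted p = 0.0165 by edgeR) that rests on 2 and 9 counts in the knockouts. FBtr0083632 went from 13.9 and 11.6 to 65.3 and 87.2 CPM, a change of 2.55 (adjusted p = 0.00494 by edgeR). FBtr0332034 went the other way in set 1, from 233 and 126 to 62.5 and 4.11 CPM, a change of -2.995 that did not pass (adjusted p = 0.0870 by edgeR).

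Across the called loci, set 1 had the same sign more often on the lower side than on the higher side. Calls in the same direction were above their background on both sides, and that background was itself larger for lower calls. Set 1 tested 218 of the 236 lower loci, and 95 of those were called lower (43.6%, background 7.55%) and 0 higher by edgeR, and 206 had a negative change. Their median change in set 1 was -1.04. Of the 134 higher loci, 133 were tested, where 22 were called higher (16.5%, background 2.48%) and 7 lower. In set 1, 80 of them had a positive and 53 a negative change, with a median of 0.27. The set 1 calls were 457 over the 5549 loci tested (8.24%, background 10%), 259 without set 1 WT replicate 1, 291 without WT replicate 2 and 881 without knockout replicate 1. With set 1 in place of set 2 in the tissue difference itself, 238 loci were lower and 8 higher, of 6015 that met the minimum. Only 89 of the 370 main calls were among them in the same direction. With both testis sets in 1 fit, 153 were lower and 159 higher, so the excess of lower calls was not seen there.

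**Figure D3:**
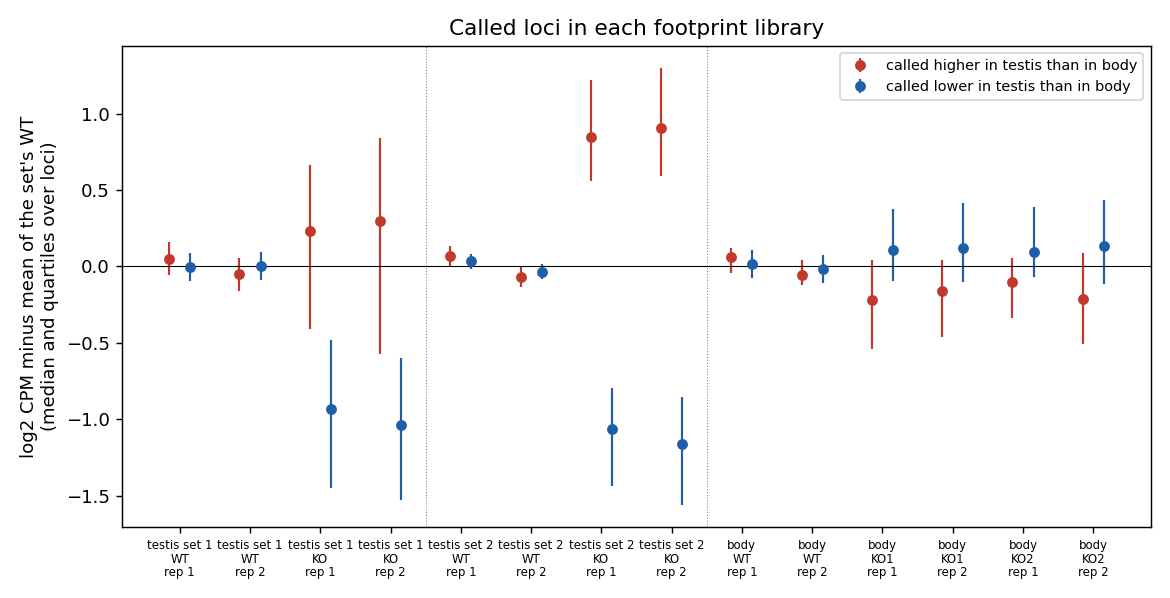
Median and quartiles, over called loci, of log2 CPM in each footprint library relative to the mean WT of the same set or body. Red marks the 134 loci called higher and blue the 236 called lower in testis than in body. The blue medians are -1.06 and -1.16 in the set 2 knockouts, -0.93 and -1.04 in the set 1 knockouts and 0.10 to 0.13 in body knockouts.

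These loci were chosen on the set 2 and body libraries, so agreement among those libraries is partly fixed by the choice. The 134 higher loci had medians of 0.85 and 0.91 above WT in the set 2 knockouts, from which they were chosen, and of 0.23 and 0.30 in the set 1 knockouts. In the body knockouts their medians were -0.22 and -0.16 in KO1 and -0.10 and -0.21 in KO2. Within each knockout group the medians of the 2 libraries lay close together, which does not show that the loci were even. In the set 1 knockouts, the quartiles of the higher loci were -0.41 to 0.66 and -0.57 to 0.84.

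Transcript levels were compared through set 1 RNA-seq, which was deep (9178175 to 13975260 counts per library) and independent of the footprints that chose the loci. It called 2620 of 5778 loci (45.3%, background 40.4%). Of 235 lower loci tested, 156 were called lower in RNA-seq (66.4%, background 18.9%), 18 were called higher and 61 were not called. Of 134 higher loci, 70 were called higher (52.2%, background 21.5%), 10 lower and 54 not called. The median RNA-seq change was -0.73 for the lower loci and 0.32 for the higher ones, against -0.08 for the 5778 loci tested. FBtr0300942 went from 106 and 124 to 9.24 and 11.6 CPM and FBtr0083632 from 10.3 and 8.10 to 98.2 and 90.8 CPM, so their RNA moved with their footprints. FBtr0332034 fell in set 1 RNA-seq from 96.5 and 62.5 to 11.7 and 32.1 CPM.

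RNA-seq of the set 2 and body samples was much shallower, with 130966 to 182174 counts per testis library and 41209 to 78229 per body library. It tested 1199 of the 5790 loci and called a tissue difference at 13 of them (1.08%, background 0.927%), 8 higher (background 0.535%) and 5 lower (background 0.392%) in testis. The count was 4 without testis WT replicate 2, 5 without body WT replicate 1, 7 without testis WT replicate 1 or KO2 replicate 2 and 8 without KO1 replicate 1. It tested 75 of the 370 footprint calls, and none of the 13 was among them. With 75 of the 1199 loci, few of the 13 would be among them in any case, so their absence says little.

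The WT tissue bias of a locus went with its behaviour in body. Bias was taken as the WT testis level of set 1 over the WT body level. The body WT libraries therefore enter both the bias and the body change. Through the bias alone, the shared libraries would raise the body change of testis-biased loci. The minimum on WT body acts the other way, since it keeps loci whose WT body level was high by chance. The 206 loci over 16-fold higher in WT testis had median levels of 14.63 and 17.75 CPM in WT body. In the body knockouts these were 7.43 to 10.89 CPM. With the minimum on the mean of all libraries of each tissue, 164 rather than 254 loci were called lower in body. The size of either effect was not tested. For 206 loci over 16-fold higher in WT testis, the body knockouts had a median change of -0.98 and testis a median of -0.58, giving a median tissue difference of 0.47. For 385 loci that were 4- to 16-fold higher in testis, the medians were -0.35 in body and -0.12 in testis. For 4410 loci within 4-fold they were 0.01 and 0.03.

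The decrease of the 206 most testis-biased loci that met the minimum was seen in each body knockout library. Summed over the 206 most testis-biased loci, WT body had 4658 and 5754 CPM, KO1 3081 and 3380 CPM and KO2 2952 and 3331 CPM. WT testis of set 2 had 107790 and 104840 CPM and the knockouts 76619 and 71507 CPM. WT and knockout did not overlap in either tissue. In body the same WT libraries helped to choose these loci, so that gap is partly fixed by the choice and is no separate support. Another 34 loci, at least 32-fold higher in WT testis of set 1 than in WT body, were taken without the minimum on WT body. They held 0.0166% and 0.0229% of counts in WT body. In KO1 the share was 0.0153% and 0.0190% and in KO2 0.0166% and 0.0197%, so WT and knockout overlapped. Those loci were chosen for a low WT body level. In body, 254 of the 5790 loci were called lower (4.39%, background 3.71%) and 60 higher (1.04%, background 1.53%), and 205 of the 254 were at least 4-fold testis-biased. Such loci were 10.2% of all 5790 and 80.7% of those lower in body. That share was not taken with the minimum on the mean of all libraries. In testis, 234 of the 770 lower loci, or 30.4%, were testis-biased to that degree. Without body WT replicate 2 the body calls were 133 rather than 314 (5.42%, background 5.24%), and with the minimum on the mean of all libraries 164 loci were lower in body.

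Of the 206 loci, 115 were called lower in body, 107 lower in testis and 100 in both, and 0 of these 100 were called for the tissue difference. For the difference, 8 of the 206 were called higher and 2 lower, which is 4.85% against 6.39% over all 5790. The 385 loci that were 4- to 16-fold higher in testis had the largest share of the 5 bias classes, 9.87%, with 14 higher and 24 lower. Among the 4410 loci within 4-fold, 183 were called lower (4.15%) and 83 higher (1.88%). Of 164 loci over 16-fold higher in WT body, 9 were lower and 5 higher.

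**Figure D4:**
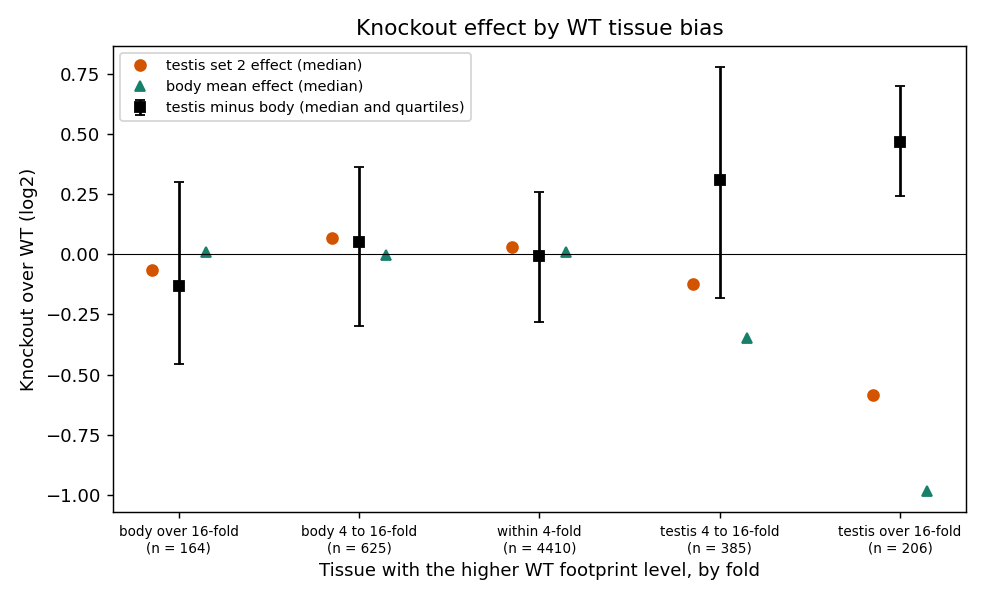
Median knockout change (log2) in testis set 2 (circles) and body (triangles), and median with quartiles of the tissue difference (squares), by WT tissue bias of 5790 loci. The body median falls from 0.01 within 4-fold to -0.98 in the loci over 16-fold higher in testis, and the tissue difference rises from -0.01 to 0.47.

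Each body line was also set against testis alone. The lines share their WT libraries, and both are set against the same testis libraries. Against KO1, 293 of the 5790 loci were called (5.06%, background 4.17%), 199 lower (background 2.09%) and 94 higher (background 2.08%). Against KO2, 270 were called (4.66%, background 3.68%), 188 lower (background 1.97%) and 82 higher (background 1.71%). Within body, KO1 differed from WT at 208 loci (3.59%, background 3.05%), 166 lower (background 2.04%) and 42 higher (background 1.01%). KO2 differed at 239 (4.13%, background 4.03%), 205 lower (background 2.88%) and 34 higher (background 1.15%). Of the 236 lower loci, 150 were called against each line, and of the 134 higher loci 56 were, while all 370 had the same sign against each line. They were chosen on the mean of these comparisons, which share libraries, and 84.4% of the 5420 loci not called also had the same sign. Leaving out 1 library moved the testis comparisons to between 82 and 389 calls for KO1 and between 68 and 306 for KO2. Each fell by more than 1.5 times without either testis WT library, testis knockout replicate 2 or either body WT library, as did KO1 without either KO1 library and KO2 without KO2 replicate 2.

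The loci called lower had lower values, by their median, of a number that the authors deposited beside each transcript. Its unit is not stated, and it is the same in every file. Its median was 359 for the 236 lower loci and 542 for the 134 higher ones, against 458 for loci not called. In the lowest quartile of the 5790 loci (16 to 251), 6.06% were called lower and 1.03% higher. In the highest quartile (783 to 22940), 2.42% were lower and 2.76% higher. The median tissue difference was -0.13 in the lowest quartile and 0.09 in the highest. In the lowest quartile testis changed by a median of -0.06 and body by 0.07. The testis medians of set 1 were 0.02, -0.06, -0.05 and 0.11 from the lowest quartile to the highest, so the lowest quartile did not fall there. These are descriptions across loci, which are not independent, and no test was made.

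**Figure D5:**
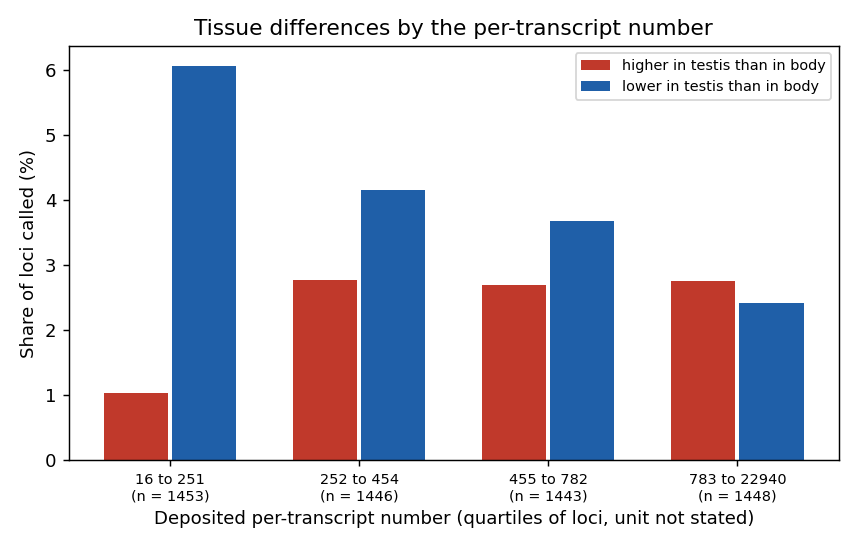
Share of loci (%) called higher (red) or lower (blue) in testis than in body, by quartile of the per-transcript number deposited by the authors, over 5790 loci. The lower share drops from 6.06% in the first quartile to 2.42% in the last, while the higher share is 1.03% in the first and 2.7% to 2.77% in the others.

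A small set of loci could be given gene names, since the reference gene table lists 43 of the identifiers among its synonyms. Of these, 20 were among the 5790, 10 with 1 gene and 10 whose identifier is listed for several genes, to none of which alone the counts can be assigned. For 33 of the 43 the identifier is part of a longer synonym. They were taken for their names and not for their values. By edgeR with adjustment over all loci, 0 of the 20 were called for the tissue difference, 2 had an unadjusted p under 0.05, and the differences ran from -1.002 to 0.55 with a median of 0.05.

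Among the structural genes, LanA, a laminin chain of the basement membrane, had 29.6 CPM in WT testis and 135 CPM in WT body, and its difference was 0.46 with an interval of 2 SE from -0.08 to 0.99. The spectrin of the membrane skeleton, alpha-Spec, had 290 and 697 CPM and a difference of 0.41 (-0.03 to 0.86). Among nuclear proteins, kis, a chromatin remodeller of the CHD family, had a difference of -0.15 (-0.54 to 0.24). Its testis change was -0.17 in set 2, not called, whereas its set 1 footprints rose by 0.79 (edgeR adjusted p = 0.0414). The set 1 RNA-seq change of kis was -0.06, not called. His4r, which encodes histone H4 outside the replication-dependent histone cluster, had 302 and 459 CPM and a difference of -0.27 (-0.74 to 0.20). The nucleolar protein gene sle had 377 CPM in WT testis and 24.3 CPM in WT body. It fell in testis by 0.58 (edgeR adjusted p = 0.0273) and in body by 0.75 (adjusted p = 0.0334 by edgeR), and its difference was 0.17 (-0.33 to 0.67). In body it was not called in KO1 or KO2 alone (edgeR adjusted p = 0.0895 and 0.112). Its set 1 footprint change of -0.40 was not called (edgeR adjusted p = 0.254), whereas its set 1 RNA-seq change of -0.59 was (edgeR adjusted p = 0.00237).

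Uba1, the enzyme that activates ubiquitin, had 395 and 288 CPM and a difference of 0.27 (-0.14 to 0.68). Of GATOR2, the complex that promotes TORC1 signalling, mio had a difference of -0.21 (-0.72 to 0.30) and Wdr59 one of 0.39 (-0.10 to 0.88). Wdr59 rose in testis by 0.71 (edgeR adjusted p = 0.00819), while mio had a testis change of 0.06. Fatp1, a fatty acid transporter, had 25.7 CPM in WT testis and 276 CPM in WT body, and its difference was 0.38 (-0.02 to 0.78). LanA was called with both testis sets in 1 fit, at 0.93 (edgeR adjusted p = 0.0426), whereas Fatp1 was at -0.66 with set 1 in place of set 2, which was not called. The intervals leave room for differences of up to about 2-fold.

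Of the transcripts listed for several genes, 2 came closest to a call. The transcript of CG45089/ND-MNLL, which includes a subunit of respiratory complex I, had a difference of -1.002 (SE 0.31, edgeR adjusted p = 0.0925), with 17.9 CPM in WT testis and 87.7 CPM in WT body. CG45089/ND-MNLL was called without testis knockout replicate 2 (-1.46, edgeR adjusted p = 0.0185) and with the crossed replicate block (-0.99, edgeR adjusted p = 0.0489). The transcript of CG7071/Muted, which includes a BLOC-1 subunit, had -0.82 (SE 0.25, adjusted p = 0.0880 by edgeR). The transcript of CG45087/Pepck1, which includes an enzyme of gluconeogenesis, had 26.04 CPM in WT testis and 1331 CPM in WT body. It rose in testis by 0.91 (edgeR adjusted p = 0.0116), and its difference was 0.38 (-0.20 to 0.95). In set 1 its footprint change was -0.46, which was not called, and its RNA-seq fell by 0.67 (edgeR adjusted p = 0.0195). The difference of CG45087/Pepck1 was -1.15 with set 1 and -0.14 with both sets, neither called. The transcript of CG42306/Gint3 fell in testis by 0.65 (edgeR adjusted p = 0.0142), with a difference of -0.44 (-0.92 to 0.05). The transcript of CG42497/Tim10, which includes a chaperone of mitochondrial import, had a difference of 0.05 (-0.39 to 0.49).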

How the data were processed

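The authors deposited raw counts per FlyBase transcript and 1 further number per transcript of unstated unit. Per the submitters' processing notes, CASAVA 1.8, STAR 2.7.0a and build dm6 were used. The counting tool, the use of strand and the handling of reads shared by isoforms or copies are not given in the sources used here, so overlapping and near-identical genes are uncertain. Of 34703 transcripts, 30261 had a count. Transcripts within 50 lines whose summed count difference was at most 0.1 of the larger total, or with identical counts in all 28 libraries and at least 100 counts, were merged, giving 16043 loci represented by the transcript with most counts. Counts of 10 footprint libraries were fitted in edgeR 4.0.16 (R 4.3.3) as 5 group means, with TMM scaling, filterByExpr at a minimum count of 10 and the quasi-likelihood F-test, called at an adjusted p under 0.05. SEs are the change divided by the root of F. Ratios of levels used 0.5 CPM as pseudocount. DESeq2 1.42.0 was an alternative, as were other scalings, filters, minimums, thinning, a replicate block, testis set 1 and leaving out libraries. The set 2 testis titles were read as giving a replicate number after the genotype. The loci, the gene lists and the rule for naming (the 2 largest and 2 most negative differences, where no table gives names) were chosen with earlier results of these data known. The lists of pathway and marker genes could not be applied without gene names.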

Additional observations from a re-analysis of the deposited data

Results flagged for a closer look

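The knockout effect differed between testis and body by a test of the difference itself at each of the 4 loci named by identifier. The tissue difference was -8.08 for FBtr0300942, -5.65 for FBtr0080275, 2.98 for FBtr0083632 and 2.85 for FBtr0332034 on the log2 scale. They were picked as the most extreme of the 370 loci called. FBtr0332034 lost its call with its sign kept in 8 of 20 alternatives. With testis set 1, a further alternative, it was -2.67 and not called (edgeR adjusted p = 0.108). FBtr0300942 lost its call in 1. Groups of 2 libraries are too small for a check of outlying samples.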

How the results depend on the processing

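The tissue difference gave 370 calls. It gave 717 with uncollapsed transcripts, 97 with a CPM minimum of 50, 226 with footprints thinned to 1587351 counts and 246 with testis set 1, and 130 to 432 when a library was left out. The other alternatives stayed within 1.5 times. These counts are over sets of unlike size: 5790 loci in the main fit, 1553 at 50 CPM and 8077 uncollapsed transcripts, where isoforms count apart. The 50 CPM minimum used the main fit and all its 97 calls were among the 370, so its lower counts here and below come from fewer loci. The testis effect (1247) gave 295 at 50 CPM and 717 to 1299 without a library, and the body effect (314) gave 64 and 133 to 347. Against KO1 (293), the counts were 582 uncollapsed, 79 at 50 CPM, 182 thinned, 160 with set 1, 179 with both sets and 82 to 389 without a library. Against KO2 (270), they were 606, 71, 139 thinned, 168 with the replicate block and 68 to 306 without a library. The set 1 testis effect (457) gave 236 with DESeq2, 905 without the low-count filter, 895 uncollapsed, 154 at 50 CPM, 157 with the replicate block and 259 to 881 without a library. The RNA-seq difference (13) gave 21 with DESeq2 size factors, 5 with DESeq2, 8 without the filter, 49 uncollapsed, 2 at 50 CPM and 4 to 15 without a library. The value at FBtr0332034 was -2.67 with set 1, which was not called, and the cause was not tested.

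Replicate numbers did not pair the samples: same-number deviations had an r of -0.38 in testis and of 0.13, 0.19 and -0.08 in body. The replicate block gave 285 calls for the tissue difference, and 521 with the testis knockout numbers crossed, an alternative chosen after seeing the data. Where 1 library was left out, the lone library of its group is assumed to vary like the others.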

Other observations

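The share of loci called for the tissue difference did not follow their level. By quartile of the lower of the 2 WT means, 6.35% were called up to 15.6 CPM, 5.11% up to 26.2 CPM, 7.74% up to 53.6 CPM and 6.35% above that, while the median SE was 0.267 in the first quartile and 0.219 in the last. Loci of several transcripts were 3392 of the 5790, 146 of the 236 lower and 81 of the 134 higher loci. The 236 lower loci had a median of 57.3 CPM in WT testis and 44.7 CPM in WT body, and the 134 higher ones 45.8 and 56.9 CPM.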
